A study of Mus musculus with 5 samples.

Results

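The genes examined were 10 members of BMP signalling picked by symbol: the ligands Bmp4 and Bmp2, the receptor Bmpr1a, the target genes Id1, Id2, Id3, and Id4, and the inhibitors Smad6, Smad7, and Bambi. All 10 were found among the 24421 genes of both deposited RNA-seq tables, and 9 of them had a level of 1 FPKM or more (mapped fragments scaled to transcript length and library size) in each of the 5 libraries. MEFs are fibroblasts grown from CF-1 mouse embryos, iPSCs are an induced pluripotent stem cell line, and the mESCs are V6.5, an embryonic stem cell line left untreated. NTC and shGldc are V6.5 cells transfected with a nontargeting control shRNA or with an shRNA against Gldc, a subunit of the glycine cleavage system. The labels describe V6.5 cells and iPSCs as grown without feeder cells, with LIF in serum replacement and little serum, and MEFs in serum without LIF. The study's methods also give a feeder culture in serum for such cells and do not say which was used for these libraries. Each group was 1 library, so no difference has a replicate check or a p-value, and the spread around each level is unknown. MEFs, mESCs, and iPSCs share the first table, and NTC and shGldc are in a second table made separately, so a level compared across the tables also holds any difference between them.

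BMP ligands bind pairs of type I and type II receptor kinases, which phosphorylate Smad1, Smad5, and Smad9. These bind Smad4, enter the nucleus, and switch on genes such as Id1 to Id4, whose products bind the E proteins Tcf3, Tcf4, and Tcf12 and keep them off DNA. Smad6, Smad7, and Bambi are themselves induced by the pathway or by TGF-beta and damp it. In cultures of mouse embryonic stem cells, BMP4 or serum acts together with LIF to sustain self-renewal, and Id genes are among the targets through which it is known to act.

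The labels were checked first. The level of Gldc was 74.7 in NTC and 2.07 in shGldc cells, whose column is headed sh3 in its table. All 7 pluripotency markers examined (such as Pou5f1 and Nanog) reached an FPKM of 1 in mESCs, iPSCs, NTC, and shGldc cells, with summed levels of 3623 to 6699 against 3.15 in MEFs, and all 7 fibroblast markers (such as Col1a1 and Thy1) reached it in MEFs. The fibroblast markers summed to 6963 in MEFs, 51.1 in mESCs, 13.2 in iPSCs, 11.4 in NTC, and 4.57 in shGldc cells. Col3a1 and Prrx1 were listed at 0 in both NTC and shGldc cells. Macrophage genes were also present in MEFs, where 5 of 6 reached an FPKM of 1, among them C1qa and Csf1r. In the 4 pluripotent libraries, Cd68 was the 1 macrophage gene that did, and Tyrobp was listed at 0. An estimate of depth came from the step that recurred most often among low FPKM values, although most of these values did not lie on it (104 of 502 did in MEFs, 104 of 508 in mESCs, 129 of 554 in iPSCs, 25 of 227 in NTC, and 33 of 205 in shGldc cells). In units of 1e6 fragments, it was 24.6 in MEFs and mESCs, 22.1 in iPSCs, 29.1 in NTC, and 28.9 in shGldc cells, and it would be 12.3 in MEFs and mESCs, 11.1 in iPSCs, 14.5 in NTC, and 14.4 in shGldc cells if the true step were 2 times as large.

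Across the 5 libraries, the members differed widely in how much they varied. Bambi varied by 1.46-fold between its lowest and highest level, Smad6 by 3.42-fold, Smad7 by 3.55-fold, and Bmpr1a by 3.84-fold. Id1 varied by 6.33-fold, Id4 by 7.65-fold, Bmp4 by 10.4-fold, Id3 by 12.6-fold, and Id2 by 28.3-fold. Bmp2 stayed below an FPKM of 1 in every library. The library with the highest level was MEFs for Bmp2, Bmpr1a, Id3, Id4, and Bambi, iPSCs for Id1 and Id2, NTC for Bmp4 and Smad7, and shGldc for Smad6.

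**Figure D1:**
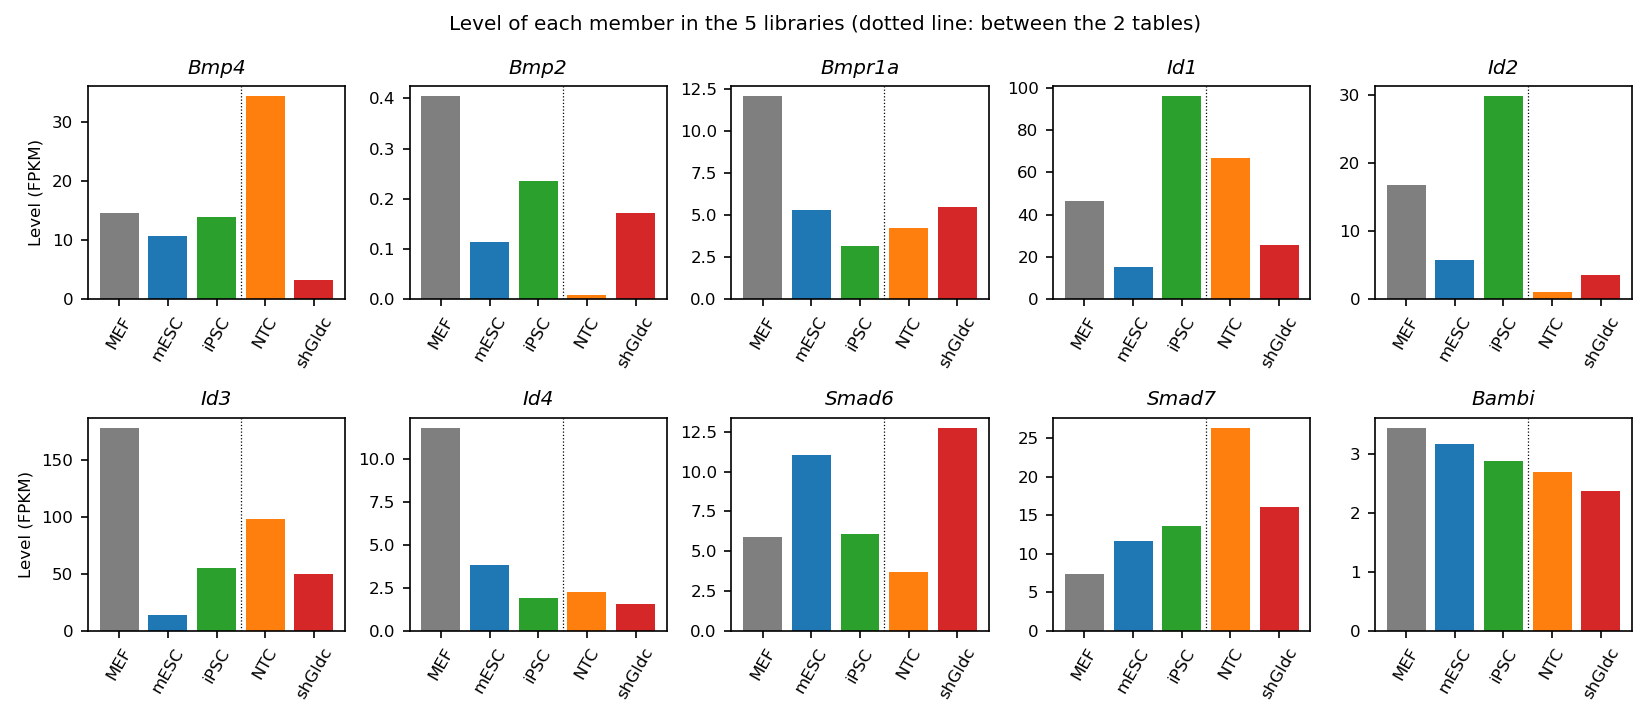
Level of each of the 10 genes (FPKM, bars from 0, each panel with its own scale) in the 5 libraries, 1 library per bar and without error bars because there were no replicates. Bmp4 is highest in NTC (34.4) and lowest in shGldc cells (3.31), Id1 is highest in iPSCs (96.0), and Bambi lies between 2.37 and 3.46 throughout.

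Bmp4, the ligand best known for sustaining mouse embryonic stem cells, lies on the minus strand of chromosome 14 (mm10, 46383520 to 46390669). Its level was 14.7 in MEFs, 10.7 in mESCs, 14.0 in iPSCs, and 34.4 in NTC and 3.31 in shGldc cells of the second table. The 3 libraries of the first table thus lay close together, and those of the second lay above and below them. The level was 10.4-fold lower in shGldc than in NTC cells, a log2 ratio of -3.34 on the log2(FPKM + 0.1) scale, which ranked at number 86 from the lowest among 11969 genes. Against untreated mESCs, Bmp4 was 3.22-fold lower in shGldc cells and 3.22-fold higher in NTC cells. Bmp4 overlaps the annotated genes Gm15217 and Gm15222 on the opposite strand, and since the strand setting of the counting is not given in the sources used here, part of its signal is uncertain.

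Bmp2, a close relative of Bmp4 that uses the same receptors, lies on the plus strand of chromosome 2 (133552159 to 133562885) and was at 0.404 in MEFs, 0.113 in mESCs, 0.235 in iPSCs, 0.010 in NTC, and 0.171 in shGldc cells. The NTC value corresponds to about 1.00 fragment and the shGldc value to about 17.5 fragments, so that no fold change is given. Comparisons were limited to genes that reached 1 FPKM in either library compared. Bmp2 never did, and the counts below are out of the 9 other members.

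Of the 14 BMP ligands examined, Bmp4 held the largest share of the summed level in all 5 libraries. This share was 71.3% in MEFs, 45.9% in mESCs, 49.2% in iPSCs, 82.4% in NTC, and 34.0% in shGldc cells. Bmp7 came second in the 4 pluripotent libraries, at 8.35 in mESCs, 5.32 in iPSCs, 3.91 in NTC, and 2.995 in shGldc cells, against 0.115 in MEFs. The summed level of all 14 ligands was 20.6 in MEFs, 23.2 in mESCs, 28.5 in iPSCs, 41.7 in NTC, and 9.73 in shGldc cells. Bmp10 and Gdf2, ligands of the vascular receptor Acvrl1, were listed at 0 in all 5 libraries.

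Bmpr1a, a type I receptor for BMP4 and BMP2, lies on the minus strand of chromosome 14 (34410734 to 34503341). Its level was 12.1 in MEFs, 5.30 in mESCs, 3.14 in iPSCs, 4.22 in NTC, and 5.47 in shGldc cells, so that every pluripotent library lay below MEFs. It was 2.28-fold lower in mESCs and 3.84-fold lower in iPSCs than in MEFs. Between shGldc and NTC cells, the log2 ratio was 0.36. Bmpr1a overlaps the annotated gene Gm17110 on the opposite strand.
Among the 4 type I receptors of the pathway, Bmpr1a held 29.1% of the summed level in MEFs, 55.3% in mESCs, 40.9% in iPSCs, 41.9% in NTC, and 52.0% in shGldc cells, and Acvr1 held most of the rest in every library. The type II receptors had a different make-up in fibroblasts and pluripotent cells. In MEFs, Acvr2a held 54.4%, Bmpr2 40.5%, and Acvr2b 5.04% of their summed level. Acvr2b held 90.4% in mESCs, 70.1% in iPSCs, 86.6% in NTC, and 74.0% in shGldc cells. Of the 9 further receptors and co-receptors, 7 were lower than in MEFs by 2-fold or more in mESCs, against 23.3% of all genes, and 7 in iPSCs, against 21.3%, and Acvr2b was the 1 gene of this group that was 2-fold or more higher in each comparison, at 12.3 in mESCs and 5.58 in iPSCs against 0.523 in MEFs. Acvrl1 was at 1.06 in NTC and listed at 0 in shGldc cells, and Rgma, a co-receptor, was at 2.66 in NTC and 6.35 in shGldc cells.

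Id1 and Id3 were the most abundant members in all 5 libraries. Id1 lies on the plus strand of chromosome 2 (152736251 to 152737410), Id2 on the minus strand of chromosome 12 (25093799 to 25097140), Id3 on the plus strand of chromosome 4 (136143497 to 136145755), and Id4 on the plus strand of chromosome 13 (48261228 to 48266026). No promoter window was available for Id1, and those of the other Id targets, Id2, Id3, and Id4, are shown. They are the RefSeq windows from 250 bases before to 50 bases after the gene start (GRCm38.p6), at chr12:25096043-25096342 on the minus strand, chr4:136143572-136143871 on the plus strand, and chr13:48260866-48261165 on the plus strand. RefSeq and the GENCODE positions above place the starts differently, so that the Id2 and Id3 windows lie inside the GENCODE genes. Each is printed 5′ to 3′ along its gene, with capitals for GGCGCC and for GTCT or its reverse complement AGAC, the letters known to be bound by BMP-regulated Smads and by Smads in general.
Id2: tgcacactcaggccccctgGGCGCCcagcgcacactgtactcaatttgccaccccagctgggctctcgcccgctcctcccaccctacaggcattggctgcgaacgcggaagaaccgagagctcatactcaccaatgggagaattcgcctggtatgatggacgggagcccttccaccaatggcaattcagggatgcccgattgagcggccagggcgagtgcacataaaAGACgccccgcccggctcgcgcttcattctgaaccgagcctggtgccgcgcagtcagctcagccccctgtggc
Id3: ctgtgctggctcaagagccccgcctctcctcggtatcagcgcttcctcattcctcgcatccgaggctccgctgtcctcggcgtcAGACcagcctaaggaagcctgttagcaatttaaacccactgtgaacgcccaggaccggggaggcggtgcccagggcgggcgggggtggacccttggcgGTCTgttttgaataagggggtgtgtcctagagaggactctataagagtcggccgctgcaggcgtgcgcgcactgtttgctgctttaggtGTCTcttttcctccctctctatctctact
Id4: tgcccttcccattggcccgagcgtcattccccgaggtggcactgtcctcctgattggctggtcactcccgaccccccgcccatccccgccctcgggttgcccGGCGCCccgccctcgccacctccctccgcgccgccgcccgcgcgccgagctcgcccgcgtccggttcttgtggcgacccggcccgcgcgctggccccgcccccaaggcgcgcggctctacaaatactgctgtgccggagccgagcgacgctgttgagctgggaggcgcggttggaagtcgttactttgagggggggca
The window of Id2 held 1 GGCGCC and 1 GTCT or AGAC, that of Id3 held 0 and 3, and that of Id4 held 1 and 0. Of 32851 promoter windows, 11.9% held GGCGCC, 88.0% held GTCT or AGAC at least once, and 39.6% held it at least 3 times. Windows were available for 6 of the 10 members, of which 3 held GGCGCC (Id2, Id4, and Bmpr1a). The 6 windows were rich in G and C, from 60% (Id3) to 79.3% (Bmpr1a). The share of windows of like composition that hold GGCGCC was not computed.

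Id1 was at 46.3 in MEFs, 15.2 in mESCs, 96.0 in iPSCs, 67.0 in NTC, and 25.6 in shGldc cells. The untreated mESCs were the lowest of the 5 libraries and iPSCs the highest. Id1 was 3.06-fold lower in mESCs and 2.07-fold higher in iPSCs than in MEFs. The latter ratio fell under 2-fold when log2 ratios were centred on the median of all genes (0.74). Between the pluripotent lines, Id1 was 6.33-fold higher in iPSCs, which ranked at number 127 from the highest among 12323 genes.

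Id3 was at 178.2 in MEFs, 14.1 in mESCs, 55.4 in iPSCs, 97.7 in NTC, and 49.7 in shGldc cells. MEFs were the highest library and untreated mESCs again the lowest. It was 12.6-fold lower in mESCs and 3.21-fold lower in iPSCs than in MEFs, and 3.92-fold higher in iPSCs than in mESCs. Fibroblast markers were present at a median of 1.11% of their MEF level in mESCs, and the same share of the MEF level of Id3 would be 1.97, or 14.0% of its mESC level. With the highest share among the 7 markers (3.11%), it would be 5.55, or 39.3%. For the other members, it would be at most 3.95% with the median and 11.1% with the highest share.

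Id2 was at 16.8 in MEFs, 5.77 in mESCs, 29.8 in iPSCs, 1.05 in NTC, and 3.60 in shGldc cells. Its order thus differed from those of Id1 and Id3, with NTC as the lowest library. Id2 was 5.17-fold higher in iPSCs than in mESCs and 5.47-fold lower in NTC than in mESCs. Id4 was at 11.8 in MEFs, 3.83 in mESCs, 1.93 in iPSCs, 2.26 in NTC, and 1.55 in shGldc cells, with MEFs above every pluripotent library. It was 3.09-fold lower in mESCs and 6.12-fold lower in iPSCs than in MEFs. Id4 overlaps the annotated genes A330033J07Rik and Gm49291 on the opposite strand.

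FPKM is per length, so the Id genes were also compared with each other. Their summed level was 253.1 in MEFs, 38.9 in mESCs, 183.2 in iPSCs, 167.9 in NTC, and 80.4 in shGldc cells. Shares of this sum and ratios within a library, unlike the sum, do not depend on the scaling between libraries. Id3 held 70.4% of it in MEFs, 58.2% in NTC, and 61.8% in shGldc cells, whereas Id1 held the largest share in mESCs (39.0%) and iPSCs (52.4%). The level of Id3 was 3.85 times that of Id1 in MEFs, 1.46 times in NTC, and 1.94 times in shGldc cells, but 0.932 times in mESCs and 0.577 times in iPSCs. Id2 held 16.3% in iPSCs and 14.8% in mESCs, but 0.627% in NTC and 4.48% in shGldc cells.
The summed level of the E proteins to which Id proteins bind ranged from 48.6 in iPSCs to 86.9 in NTC, and Tcf3 held at least 86.6% of it in the pluripotent libraries and 57.8% in MEFs. Tcf4 ranged from 8.48 in MEFs to 0.440 in shGldc cells, and Tcf12 from 20.3 in MEFs to 3.06 in shGldc cells. The summed Id level was 3.71 times that of the E proteins in MEFs, 3.77 times in iPSCs, and 1.93 times in NTC, but 0.568 times in mESCs and 1.15 times in shGldc cells.

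**Figure D2:**
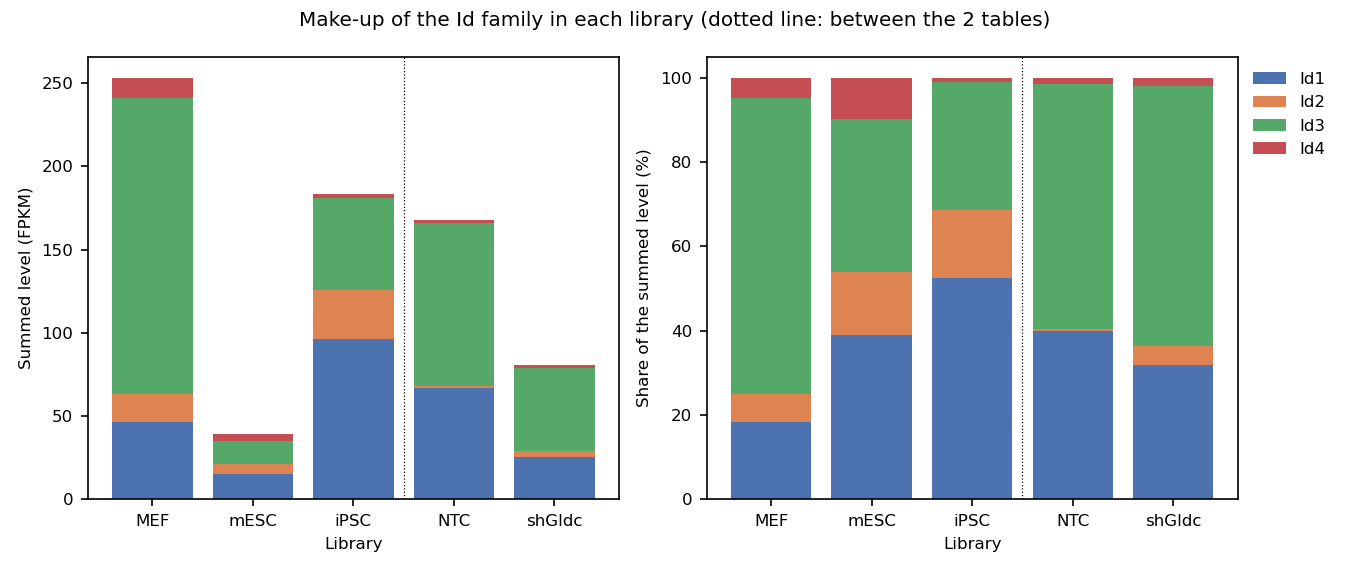
Summed level (left, FPKM) and share of the summed level (right, %) of Id1, Id2, Id3, and Id4 in each of the 5 libraries, 1 library per bar. The sum is lowest in mESCs (38.9) and highest in MEFs (253.1), and Id2 makes up 0.627% of it in NTC against 16.3% in iPSCs.

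Smad6 and Smad7 are inhibitory Smads. Smad6 acts mainly on the BMP branch, and Smad7 on both the BMP and TGF-beta branches. Smad6 lies on the minus strand of chromosome 9 (63953076 to 64022059), and its level was 5.90 in MEFs, 11.04 in mESCs, 6.09 in iPSCs, 3.73 in NTC, and 12.8 in shGldc cells. NTC was the lowest library and shGldc the highest, with untreated mESCs close to shGldc. The RefSeq promoter window of Smad6 (GRCm38.p6, chr9:64022010-64022309, minus strand) is shown with the same capitals because it joins GTCT and AGAC into 1 run.
Smad6: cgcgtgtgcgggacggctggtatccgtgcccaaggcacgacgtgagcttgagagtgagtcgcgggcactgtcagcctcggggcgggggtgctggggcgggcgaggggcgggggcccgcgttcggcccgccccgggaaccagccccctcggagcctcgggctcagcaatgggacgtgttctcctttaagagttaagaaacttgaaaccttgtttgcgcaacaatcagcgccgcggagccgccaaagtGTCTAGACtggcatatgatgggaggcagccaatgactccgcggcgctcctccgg
The run GTCTAGAC, a known Smad-binding palindrome, was counted after it was seen in this window, and 0.213% of the 32851 windows held it.

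Smad7 (chromosome 18, 75367529 to 75395935, plus strand) was at 7.41 in MEFs, 11.7 in mESCs, 13.6 in iPSCs, 26.3 in NTC, and 16.04 in shGldc cells. Here MEFs were lowest and NTC highest. The level of Smad7 was 1.26 times that of Smad6 in MEFs, 1.06 times in mESCs, 2.24 times in iPSCs, and 7.07 times in NTC against 1.26 times in shGldc cells. Bambi (chromosome 18, 3507923 to 3516404, plus strand), a decoy receptor without a kinase domain, was at 3.46 in MEFs, 3.18 in mESCs, 2.89 in iPSCs, 2.71 in NTC, and 2.37 in shGldc cells.

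The first comparison was between fibroblasts and pluripotent cells. Of the 9 members that passed the filter, 0 were higher in mESCs than in MEFs by 2-fold or more, and 5 (Bmpr1a, Id1, Id2, Id3, and Id4) were lower by as much. Among all 12840 genes, 30.3% were higher and 23.3% lower by that much. In iPSCs over MEFs, 1 member (Id1) was at least 2-fold higher, against 31.5% of 13032 genes, and 3 (Bmpr1a, Id3, and Id4) were at least 2-fold lower, against 21.3%. The median log2 ratio of the members was -1.17 in mESCs and -0.07 in iPSCs, and that of all genes was 0.25 and 0.31. These libraries are bulk RNA, in which fewer cells of a type and less RNA per cell cannot be told apart. With the NTC library in place of untreated mESCs, 2 members were higher and 3 lower than in MEFs by 2-fold or more, against 30.6% and 25.7% of 12785 genes. The log2 ratio changed sign for Bmp4 (1.22), Id1 (0.53), and Smad6 (-0.65).
Of 62 other genes of the pathway, 47 passed the filter for mESCs over MEFs, of which 3 were higher and 29 lower by 2-fold or more, with a median log2 ratio of -1.89. For iPSCs over MEFs, 51 passed, of which 7 were higher and 29 lower, with a median of -1.38. Among the secreted antagonists, Fst, Fstl1, Nbl1, and Nog were lower in both comparisons, with Fstl1 at 472.3 in MEFs, 39.97 in mESCs, 27.5 in iPSCs, 26.4 in NTC, and 19.05 in shGldc cells. The 5 intracellular inhibitors, such as the ubiquitin ligases Smurf1 and Smurf2, had no member beyond 2-fold in mESCs and 1 (Ski, log2 ratio -1.06) in iPSCs. In the TGF-beta arm, 8 of 9 genes were lower by 2-fold or more in each comparison. The ligand Tgfb3 was lowest relative to MEFs, where it was at 73.1 against 0.831 in mESCs and 0.186 in iPSCs. Dusp9, a phosphatase for ERK that is induced by BMP signalling in mouse embryonic stem cells, was at 7.50 in MEFs, 267.9 in mESCs, 251.1 in iPSCs, 119.5 in NTC, and 220.8 in shGldc cells.

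**Figure D3:**
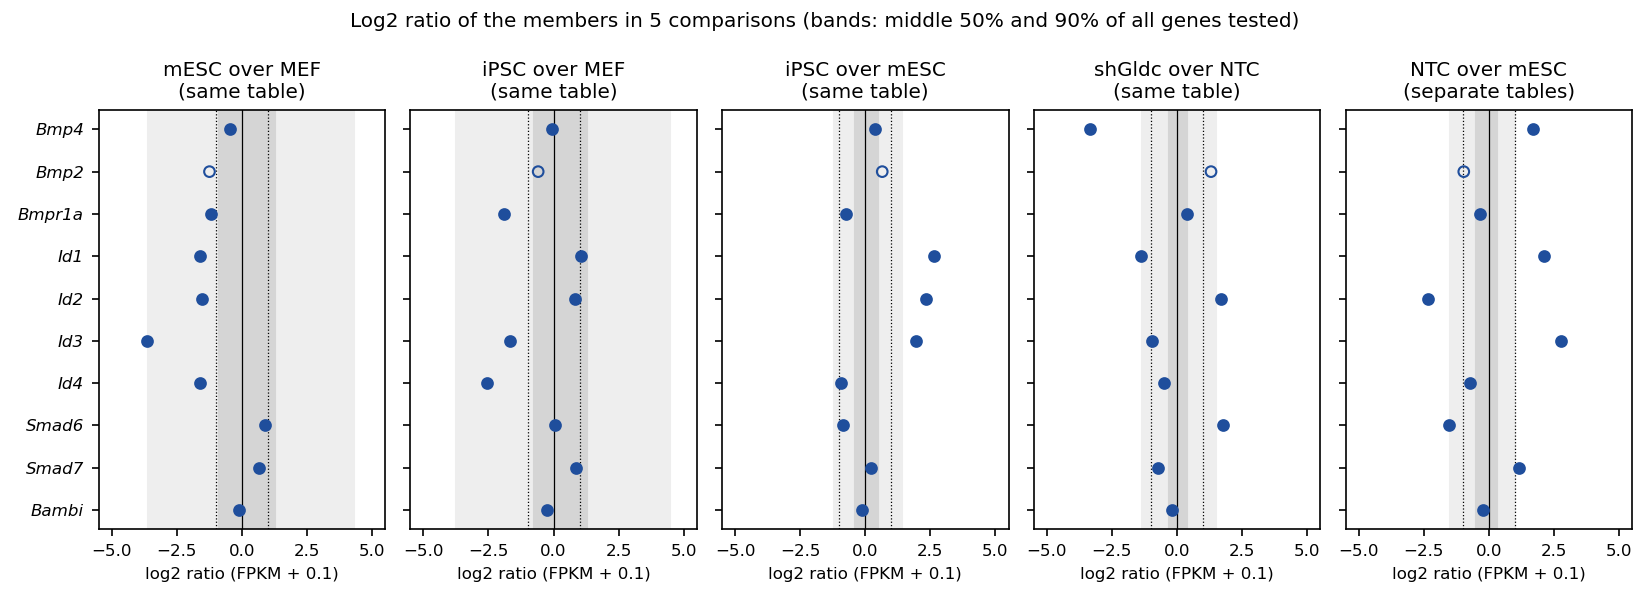
Log2 ratio of FPKM + 0.1 (x axis) for the 10 genes (rows) in 5 comparisons (panels), with dotted lines at 2-fold and grey bands for the middle 50% and 90% of all genes tested. Open circles mark Bmp2, which did not pass the filter. Id1, Id2, and Id3 lie to the right in iPSC over mESC (2.66, 2.35, and 1.96), and Bmp4 lies furthest to the left in shGldc over NTC (-3.34).

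Between the pluripotent lines, 3 of the 9 members (Id1, Id2, and Id3) were at least 2-fold higher in iPSCs than in mESCs, against 10.1% of 12323 genes, and 0 were at least 2-fold lower, against 7.44%. Their log2 ratios were 2.66, 2.35, and 1.96, and those of Id4, Smad6, and Bmpr1a were -0.95, -0.85, and -0.73. Bmp4, with a log2 ratio of 0.39, differed less than these Id genes. With NTC as the V6.5 library, across the separately made tables, 1 member (Id2, log2 ratio 4.70) was 2-fold or more higher in iPSCs, against 16.3% of 12283 genes, and 1 (Bmp4, -1.29) lower, against 7.81%. Id1 was then at 0.52, and Id3 (-0.82), Bmp4, Smad6 (0.69), Smad7 (-0.95), and Bambi (0.09) changed sign. Of the 4 other target genes that passed the filter, Msx1 and Msx2 were 2-fold or more higher and 0 as much lower. Msx1 and Msx2 passed only through their iPSC level, so this count is partly set by the filter. Msx1 was at 0.587 in mESCs and 1.71 in iPSCs, and Msx2 at 0.978 and 2.43, whereas Hey1 was at 2.68 and 1.55, and Dusp9 at 267.9 and 251.1. Atoh8 was lower in iPSCs (log2 ratio -1.42) but did not pass, at 0.627 and 0.171. Of the 42 other pathway genes that passed, 7 were higher in iPSCs by 2-fold or more and 4 lower, from Fst (log2 ratio 2.02) to Grem1 (-2.99), both secreted antagonists. Among the 7, Bmp6 alone reached 1 FPKM in both libraries, and the others passed through their iPSC level only. Of the 4 lower genes, Rgma and Grem1 passed through their mESC level only. Of the 5 trophectoderm markers, 4 reached an FPKM of 1 in iPSCs and 2 in mESCs, with summed levels of 411.7 and 31.6, mostly from the keratins Krt8 and Krt18. The primitive endoderm markers summed to 18.6 in iPSCs and 5.02 in mESCs, those of primitive streak and mesoderm to 19.4 and 9.45, and the neural markers to 23.9 and 71.6. The higher streak and mesoderm sum came mostly from Hand1, at 13.6 in iPSCs and 3.01 in mESCs. Eomes (4.09 and 5.48) and Mixl1 (0.162 and 0.234) were lower in iPSCs, and T and Mesp1 were higher but below 1 FPKM. The part of such cells in the Id levels was not tested.

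The comparison of shGldc with NTC cells sets 1 V6.5 library with a lower level of Gldc beside 1 control library. An effect of Gldc cannot be told apart here from other differences between these libraries. Of the 9 members, 2 (Id2 and Smad6) were at least 2-fold higher in shGldc cells, against 8.97% of 11969 genes, and 2 (Bmp4 and Id1) were at least 2-fold lower, against 7.68%. Id3 lay just short of that line, at 1.97-fold lower, and passed it when libraries were rescaled or centred (log2 ratio -1.01), which made 3 members lower. The log2 ratios were 1.75 for Smad6 and 1.68 for Id2 (each 3.42-fold), and -3.34 for Bmp4, -1.39 for Id1, and -0.97 for Id3. They were -0.71 for Smad7, -0.52 for Id4, 0.36 for Bmpr1a, and -0.18 for Bambi, and the median of the members was -0.52, against 0.04 for all genes. The Id genes thus did not lie on the same side, with Id2 higher and Id1 lower.
Of the 5 other target genes, the 3 that passed the filter were higher in shGldc cells, Dusp9 by less than 2-fold, and Hey1, which did not pass, was lower. Msx1 passed only through its shGldc level, so this count is partly set by the filter. Msx1, a homeobox gene, was at 0.107 in NTC and 14.9 in shGldc cells, Msx2 at 2.94 and 9.42, and Dusp9 at 119.5 and 220.8. Hey1 was at 0.806 in NTC and 0.290 in shGldc cells, and Atoh8 was listed at 0 and was at 0.096, so that neither passed the filter. Relative to untreated mESCs, the log2 ratios in shGldc cells were 4.45 for Msx1 and 3.14 for Msx2, but -2.84 for Hey1 and -0.28 for Dusp9. The 3 signal-carrying Smads that passed had log2 ratios from -0.78 (Smad5) to 0.75 (Smad1). Of the 34 other pathway genes that passed, 4 were higher (Rgma, Msx1, Msx2, and Ctgf) and 3 lower by 2-fold or more (Acvrl1, Tcf4, and Tgfb1), with a median log2 ratio of 0.14. Neither the 5 intracellular inhibitors nor the 4 secreted antagonists that passed went beyond 2-fold, with Dand5 highest (0.88) and Skil lowest (-0.70). Beside this, the trophectoderm markers summed to 26.7 in NTC and 209.3 in shGldc cells, and Cdx2 was at 5.41 and 33.3, while Elf5 was listed at 0 in NTC and was at 0.031 in shGldc cells. Most of these sums came from the keratins Krt8 (9.09 in NTC and 79.4 in shGldc cells) and Krt18 (11.9 and 95.4). The primitive endoderm markers summed to 3.17 and 18.0, those of primitive streak and mesoderm to 14.5 and 17.4, the neural markers to 34.2 and 38.2, and the 7 pluripotency markers to 4058 and 3623. Of the latter, 6 were lower in shGldc cells, such as Sox2 (223.0 in NTC and 130.4 in shGldc), and Dppa5a was higher (1440 and 1792). The part of differentiating cells in the levels of Msx1, Msx2, Bmp4, and the Id genes was not tested.

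**Figure D4:**
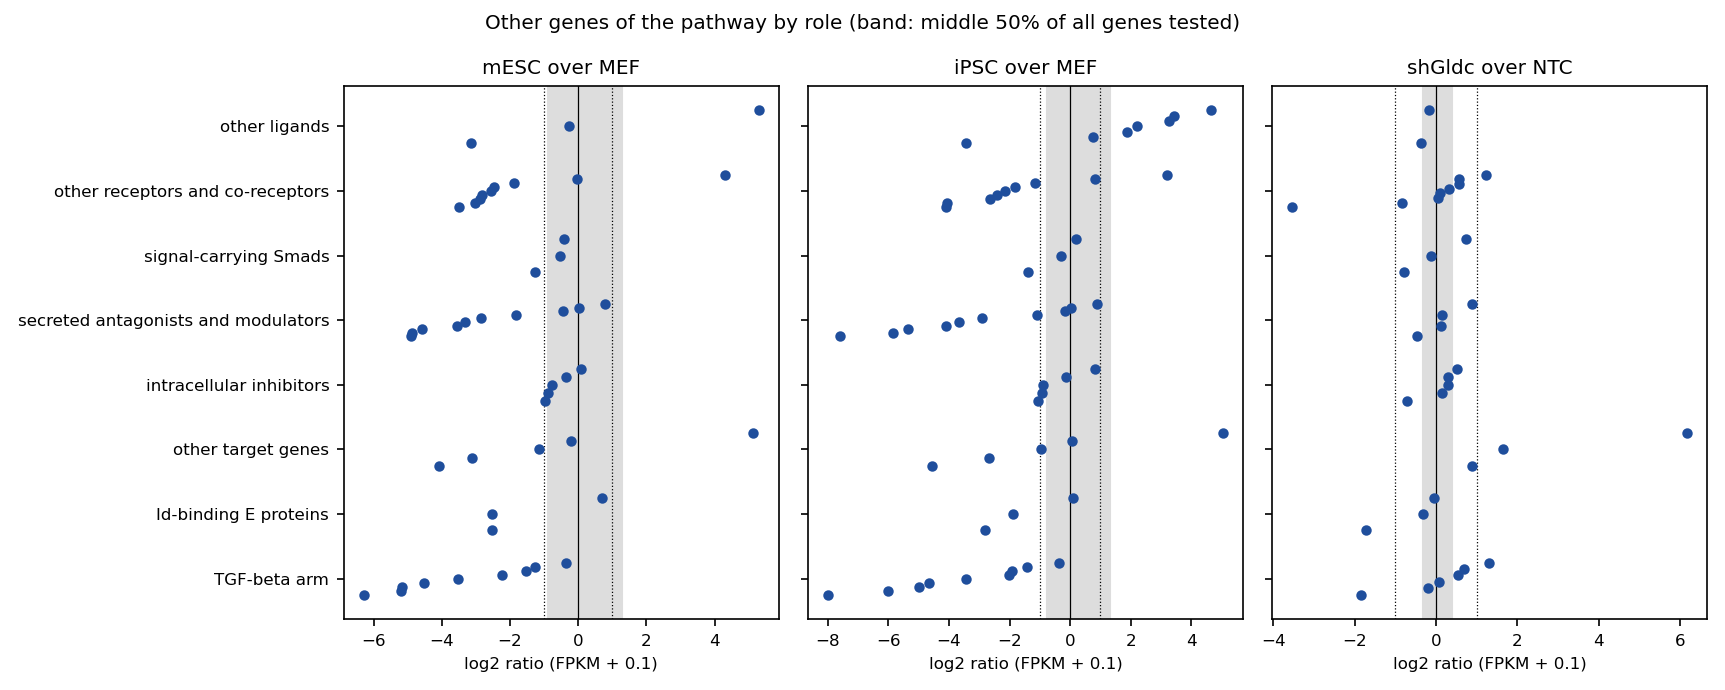
Log2 ratio of FPKM + 0.1 (x axis) for the other genes of the pathway that passed the filter, 1 point per gene, grouped by role (rows) in 3 comparisons (panels, each with its own scale). The grey band is the middle 50% of all genes tested and dotted lines mark 2-fold. Receptors, secreted antagonists, and the TGF-beta arm lie mostly to the left in the comparisons with MEFs, and Msx1 (6.18) and Acvrl1 (-3.54) are the outermost points in shGldc over NTC. Acvrl1 is listed at 0 in shGldc cells, so the size of its ratio depends on the added 0.1.

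NTC and untreated mESCs are the same cell line, and their comparison shows how far apart control libraries can lie, although it crosses the separately made tables. Of the 9, 4 (Bmp4, Id1, Id3, and Smad7) were at least 2-fold higher in NTC, against 4.99% of 12048 genes, and 2 (Id2 and Smad6) at least 2-fold lower, against 10.3%. The log2 ratios were 2.78 for Id3, 2.14 for Id1, 1.68 for Bmp4, and 1.17 for Smad7, and -2.35 for Id2 and -1.54 for Smad6. Id3 ranked at number 82 and Id1 at number 135 from the highest. Of the 35 other pathway genes that passed, 1 (Msx2, 3.01-fold) was higher in NTC by 2-fold or more and 9 were lower, with Grem1 lowest (-3.63). Grem1 was at 1.14 in mESCs and listed at 0 in NTC, so the size of its ratio depends on the added 0.1. Lineage markers differed as well. The trophectoderm markers summed to 31.6 in mESCs and 26.7 in NTC (Cdx2 at 0.274 and 5.41), those of primitive endoderm to 5.02 and 3.17, those of primitive streak and mesoderm to 9.45 and 14.5, and the neural markers to 71.6 and 34.2 (Sox1 at 7.62 and 1.43). Their part in the levels of the members was not tested.
The comparisons of shGldc and of untreated mESCs with NTC share the NTC library, and their values are therefore set side by side only. With untreated mESCs as the control, the log2 ratio in shGldc cells was -1.66 for Bmp4, 0.75 for Id1, -0.67 for Id2, 1.81 for Id3, -1.25 for Id4, 0.21 for Smad6, and 0.45 for Smad7. Of the 9, 1 (Id3) was thus 2-fold or more higher, against 9.89% of 12237 genes, and 2 (Bmp4 and Id4) lower, against 13.9%. The sign differed from that over NTC for Id1, Id2, Id3, and Smad7. Bmp4, Id4, and Bambi were thus lower in shGldc cells than in either control, whereas Id1, Id2, Id3, and Smad7 lay between the controls. Smad6 was 3.42-fold higher in shGldc than in NTC cells but 1.16-fold higher than in untreated mESCs.

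The genes whose profile over the 5 libraries was closest to that of Bmp4, by the distance between centred log2(FPKM + 0.1) values among 13656 genes, were Oaz1 (0.85), Pde2a (0.90), and Snora30 (0.91). Oaz1, an inhibitor of polyamine synthesis, was at 129.7 in NTC and 16.3 in shGldc cells. The closest to Id1 were Gm1821 (0.75), Ggact (0.76), and Vdr (0.82), and Vdr, the vitamin D receptor, was at 0.475 in mESCs and 2.73 in iPSCs. With 5 libraries in 2 tables, these distances are a description.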

How the data were processed

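RNA-seq was analysed for 5 mouse libraries, 1 per group. The authors mapped reads to mm10 with TopHat2 2.1.0, assembled transcripts with StringTie 1.3.4d, and deposited FPKM values from Ballgown in 2 separately made tables. The submitters' processing notes name both mm9 and mm10. The annotation, strand setting, and filters are not given in the sources used here. The column of the shGldc library is headed sh3, and it was assigned to the only library labelled with an shRNA against Gldc. Ratios were taken as log2(FPKM + 0.1), which understates the change of low genes, for genes that reached 1 FPKM in either library compared. A gene low in 1 library thus passes only where the other is higher, so counts among low genes are partly set by this filter. A gene was counted as higher or lower from 2-fold. No test was run. The members and the pathway and marker lists were written by hand with earlier results of these data known. All members are named, and of the lists the genes with the highest and lowest ratios and those needed to read a member, with the 3 genes closest in profile to Bmp4 and to Id1. Positions come from GENCODE M21 (mm10) and promoters from RefSeq (GRCm38.p6). Depth was estimated from low FPKM values times length over 5723 genes with 1 annotated transcript, as the step with the most values within 1% of 1 to 3 multiples. Ratios and the step search were tested on simulated data. Alternatives were a pseudocount of 1 or 0.01, rescaling to the same FPKM sum, centring on the median, leaving out the filter or raising it to 5 FPKM, and another control library, of which NTC in place of untreated mESCs was added after seeing the data. Python 3.11.15, numpy 2.4.6, pandas 2.3.3, and matplotlib 3.10.9 were used.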

Additional observations from a re-analysis of the deposited data

Results flagged for a closer look

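Id1 and Id2 lay on opposite sides of their MEF level in iPSCs and untreated mESCs. For Id1, the log2 ratios over MEFs were -1.61 (mESCs) and 1.05 (iPSCs), a difference of 2.66, and that of Id2 was -1.52 and 0.83, a difference of 2.35. With NTC as the V6.5 library, Id1 lay on the same side as in iPSCs (0.53) and Id2 stayed on the other (-3.87). With 1 library per line, the difference was not tested.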

How the results depend on the processing

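The limits are those of 1 library per group and of 2 separately made tables. No paired analysis was possible because no group has replicates. The limit for a moved ratio was 0.59, taken from the robust spread of all genes between NTC and untreated mESCs, and that for a count was 1.5 times. Of 230 ratios of single members recomputed, 200 did not move, 26 moved, and 4 went from 2-fold or more to the other sign. Most of the moves came from the other control library. With NTC in place of untreated mESCs, 4 ratios did not move, 14 moved, and 2 went to the other sign in this way. With untreated mESCs in place of NTC, 2 did not move, 6 moved, and 2 went to the other sign in this way. With rescaled or centred libraries, 0 members were at least 2-fold higher in iPSCs than in MEFs, since Id1 lay just above the line. Rescaling brought 1 member (Id4) at least 2-fold below mESCs in iPSCs. Rescaling and centring each brought Id3 (-1.01) past 2-fold in shGldc over NTC cells, for 3 lower members. With an FPKM of at least 5, Id2 left the comparison of shGldc with NTC cells and 1 member was higher. The median log2 ratio of the members in NTC over untreated mESCs was then 1.17, against -0.22 with the main filter. With untreated mESCs as the control for shGldc cells, 1 member (Id3) was at least 2-fold higher (9.89% of all genes) and 2 lower (13.9%), and Id1 (0.75), Id2 (-0.665), Id3 (1.81), and Smad7 (0.45) changed sign. With NTC in place of untreated mESCs, an alternative chosen after seeing the data, 2 members were higher (30.6% of all genes) and 3 lower (25.7%) than in MEFs, and Bmp4 (1.22), Id1 (0.53), and Smad6 (-0.65) changed sign. The same replacement, also added after seeing the data, left 1 member higher (16.3% of all genes) and 1 lower (7.81%) in iPSCs than in V6.5 cells, with Id3 (-0.82) among those that changed sign. The causes were not tested. The ratio of Bmp2 in shGldc over NTC cells ranged from 0.21 to 3.20 with the pseudocount, and its level in NTC is at the limit that depth sets.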
